A study of Danio rerio with 16 samples.

Results

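The comparison described here set zebrafish embryos injected with insulin against embryos injected with PBS, both sampled 0.5 hours post injection (hpi). Its members are the 8 libraries titled with either injection at 0.5 hpi, 4 of each, out of 16 in the series. All embryos were of the ABTL genetic background and 4 days past fertilization. The injections at 0.5 hpi and at 4 hpi differed in the labels only in treatment and time. Every embryo received 1 nl into the caudal aorta, either human recombinant insulin or PBS as the vehicle control. Each library held total RNA of 10 pooled whole embryos. The dose of insulin is one of the details not given in the sources used here. Uninjected embryos were not analysed here. By its title the study is about ptpn6, a phosphatase gene, in insulin resistance under high insulin. The comparison asks which transcripts differ at the shortest interval sampled after insulin. In whole embryos fewer cells of a type and less RNA per cell cannot be told apart.

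Insulin binds a receptor tyrosine kinase whose IRS adaptors recruit PI3-kinase and activate AKT. AKT phosphorylates FoxO transcription factors, which then leave the nucleus. In mammals the messengers of FoxO targets such as those for phosphoenolpyruvate carboxykinase, glucose-6-phosphatase, IGFBP1 and IRS2 decline quickly in liver. A parallel branch through RAS and ERK induces immediate-early genes in many cultured cells. Growth signalling through mTOR raises ribosome production. Zebrafish tissues also sense light directly, and light is known to induce genes such as per2, tefa and those for photolyases and DNA repair.

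The 16 libraries held 6535173 to 9628705 counted reads. At 0.5 hpi PBS libraries held 7584357 to 9628705 reads and insulin libraries 7931641 to 8643202, and 21929 genes were tested. PBS replicates 2 and 3 at 0.5 hpi differed beyond counting error in 89 of 22287 genes, against 710 to 9655 genes in the other 23 pairs of libraries within a group. By the mean chi-square of that comparison the pair was not the lowest, at 2.74 against 2.4 to 26.8 in the other pairs. By the median it was, at 0.524 against 0.717 or more. The counts of PBS replicates 2 and 3 at 0.5 hpi were therefore summed as 1 library, which leaves 3 PBS libraries against 4 insulin libraries. Levels in CPM, counts scaled to a common library size, are given in the order PBS replicate 1, replicates 2 and 3 summed, replicate 4, then insulin replicates 1 to 4. PBS replicate 1 and insulin replicates 1 and 2 held little wdr90 RNA: its level was 3.16, 66.7 and 41.8 CPM in PBS and 2.76, 3.95, 75.7 and 50.2 CPM in insulin. si:dkey-15h8.1 split the same libraries, at 2.26, 97.03 and 109.9 CPM and 2.51, 2.21, 108 and 96.8 CPM. PBS replicate 1 and insulin replicates 1 and 2 are called the low-wdr90 libraries below and the rest the other libraries. The grouping was drawn from the data and not from the labels, and what sets them apart was not tested. At 0.5 hpi both sets hold PBS and insulin libraries, so each gene can be followed within each set. The low-wdr90 set has only 1 PBS library. At 4 hpi insulin replicate 1 also held little wdr90 and si:dkey-15h8.1 RNA, at 4.96 and 3.09 CPM, and is a low-wdr90 library in the fits. All PBS libraries at 4 hpi belong to the other set. As a check on the tissue, markers of 13 cell and organ types were all detected in every library at 0.5 hpi. Their summed levels ran from 406 CPM for neutrophil genes to 113971 CPM for muscle genes.

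Over all genes, 11 passed the test at 0.5 hpi (edgeR, adjusted p under 0.05), which is 0.0502% of those tested. Of these, 6 rose in insulin (0.0274%) and 5 fell (0.0228%), and 3 changed by more than 2-fold: pck1, wdr76 and si:dkey-104n9.1. Scaling by library totals without TMM factors also gave 11 genes, 9 of them shared, but 72.7% of them were higher in insulin against 54.5% here. DESeq2's Wald test called 206 of 21929 genes, 63 higher and 143 lower, and limma voom called 4. Counts by these tools in the gene lists below are to be read against those totals. In edgeR an unadjusted p under 0.05 was reached by 2214 genes (10.1%), 1044 of them higher (4.76%) and 1170 lower (5.34%). In 1706 genes (7.78%) the PBS and insulin levels did not overlap. All 11 genes were among those without overlap. Their direction was therefore the same within both sets of libraries, which adds nothing to the lack of overlap. Within both library sets, 1853 genes (8.45%) were higher in insulin without overlap and 1842 (8.4%) lower.

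The genes that fell encode a gluconeogenic enzyme, an amino acid-degrading enzyme, an amino acid transporter, a secreted glycoprotein and a membrane scaffold. pck1 (ENSDARG00000013522, chromosome 6), for the cytosolic phosphoenolpyruvate carboxykinase that commits carbon to gluconeogenesis, was at 450.0, 529 and 711 CPM in PBS and at 232, 273, 276 and 289.9 CPM in insulin. The highest insulin library lay well below the lowest PBS library, and the insulin libraries were closer to each other than the PBS libraries (log2 change -1.07, SE 0.16, adjusted p = 0.0337). hal (ENSDARG00000017444, chromosome 25), for histidine ammonia-lyase, the first enzyme of histidine breakdown, was at 45.02, 41.3 and 44.9 CPM in PBS and 28.96, 26.9, 27.4 and 26.7 CPM in insulin. Within each group its libraries were nearly level, so that a change of under 2-fold was large against the spread (log2 change -0.67, SE 0.10, adjusted p = 0.0337). slc43a2b (ENSDARG00000061120, chromosome 10), for a transporter of large neutral amino acids, was at 329, 438 and 495 CPM in PBS and 199, 258, 202 and 187 CPM in insulin. Its groups did not overlap (log2 change -0.99, SE 0.17, adjusted p = 0.0337). Its lowest PBS level was in replicate 1, the low-wdr90 library, and the change was -0.52 within the low-wdr90 set and -1.26 within the other libraries. epdl1 (chromosome 7), an ependymin-like gene for a secreted glycoprotein, stood at 53.1, 69.2 and 67.2 CPM in PBS and at 40.9, 40.8, 39.7 and 42.4 CPM in insulin (log2 change -0.63, SE 0.11, adjusted p = 0.0337). mpp1 (chromosome 21), for a palmitoylated membrane scaffold known from red cells, stood at 126, 155 and 159 CPM and 101, 94.2, 97.96 and 86.98 CPM (log2 change -0.63, SE 0.11, adjusted p = 0.0367). In both genes the insulin libraries formed a narrow band below all PBS libraries, and again PBS replicate 1 was the lowest of its group. Summed erythroid markers, which bear on mpp1, were at 7022, 3096 and 2293 CPM in PBS and at 5269, 5023, 2665 and 2794 CPM in insulin. They followed the library sets, and their part in the result was not tested.

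The genes that rose include a transcription-coupled repair factor, a WD-repeat protein tied to DNA damage in yeast and mammals, and a PAR bZIP transcription factor under light and clock control. ercc6 (chromosome 13), for the Cockayne syndrome B ATPase of transcription-coupled repair, was at 20.4, 22.3 and 20.7 CPM in PBS and 30.2, 36.1, 43.5 and 51.2 CPM in insulin. The PBS libraries lay within 2 CPM of each other, and every insulin library was above them, most of all replicates 3 and 4 (log2 change 0.93, SE 0.16, adjusted p = 0.0337). wdr76 (chromosome 7) was at 7.33, 5.46 and 5.42 CPM in PBS and 11.3, 13.1, 22.9 and 23.3 CPM in insulin (log2 change 1.55, SE 0.26, adjusted p = 0.0337). Its insulin libraries fell into a lower pair, the low-wdr90 replicates 1 and 2, and a higher pair. Its change was 0.74 in the first set and 2.08 in the other libraries. tefa (chromosome 12), for a PAR bZIP factor, was at 178, 130.4 and 145 CPM in PBS and 217, 244, 257 and 279 CPM in insulin (log2 change 0.72, SE 0.12, adjusted p = 0.0337). Within the sets its change was 0.37 and 0.96. The difference between the sets passed its own test for slc43a2b, wdr76 and tefa, and not for the other 8 genes. dhrs12 (chromosome 9), for a short-chain dehydrogenase/reductase, was at 19.4, 14.8 and 14.3 CPM and 23.8, 30.4, 33.7 and 33.1 CPM (log2 change 0.91, SE 0.14, adjusted p = 0.0337). MRAS (1 of 2) (chromosome 22), for a small GTPase of the RAS family, was at 35.3, 31.4 and 34.2 CPM and 47.4, 60.02, 50.2 and 50.5 CPM (log2 change 0.63, SE 0.11, adjusted p = 0.0352). Its change was nearly the same in the low-wdr90 set, 0.61, as in the other libraries, 0.62, as was that of hal, -0.69 and -0.67. si:dkey-104n9.1 (chromosome 8), to which no function is given here, was the least abundant, at 2.60, 2.07 and 1.93 CPM and 4.64, 5.46, 6.55 and 5.71 CPM (log2 change 1.35, SE 0.23, adjusted p = 0.0344).

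**Figure D1:**
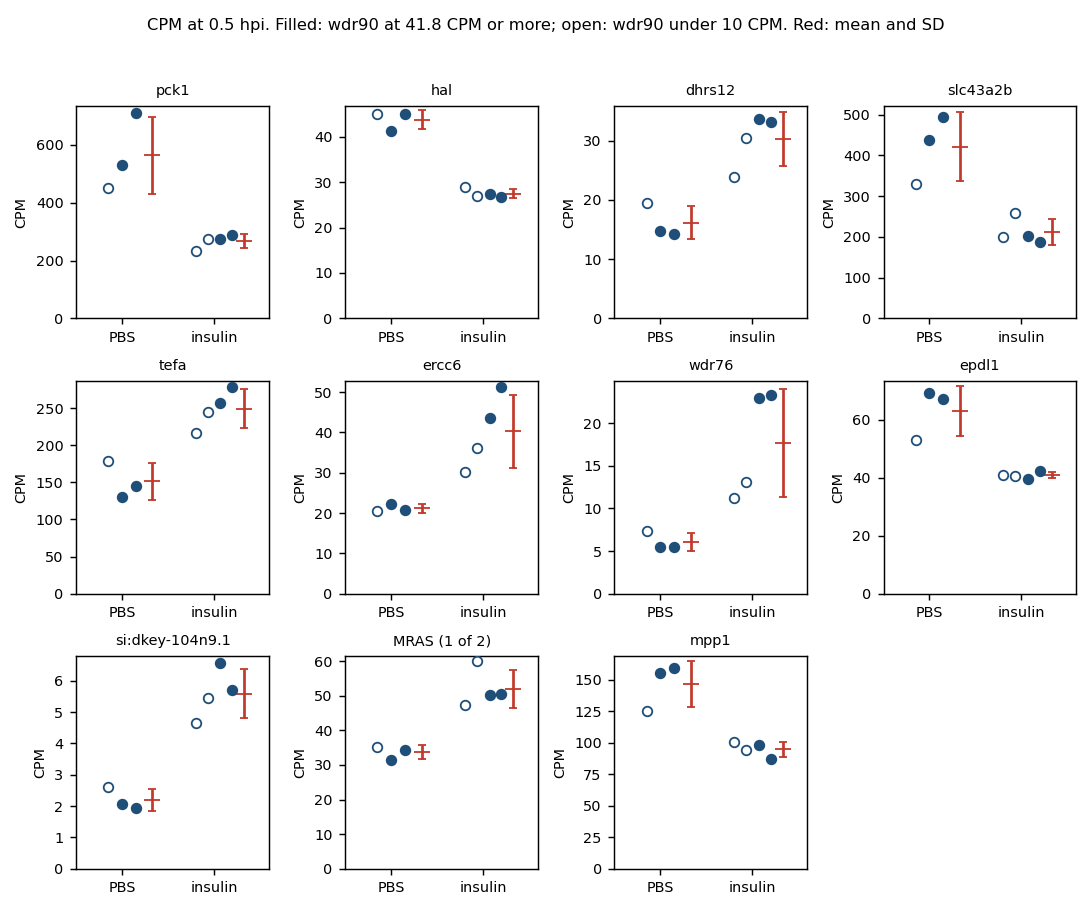
Level in CPM (vertical axis from 0) of each of the 11 genes that passed at 0.5 hpi, in the 3 PBS and 4 insulin libraries. Open points are the low-wdr90 libraries, filled points the others, and red bars the mean and SD of each group. In every panel the groups do not overlap, and for wdr76 the filled insulin points (22.9 and 23.3 CPM) lie above the open ones (11.3 and 13.1 CPM).

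The number of genes that passed rested on single libraries, while the direction of these 11 did not turn in any alternative run. Their groups did not overlap, so leaving out libraries could hardly have turned it. No gene passed without PBS replicates 2 and 3, without PBS replicate 4, or without insulin replicate 3 or 4 (edgeR; 1615, 1698, 1998 and 1730 genes at an unadjusted p under 0.05). Without PBS replicate 1, 517 passed, all 11 among them. Leaving out a library at 4 hpi acts through the shared estimate of the spread, the filter on low counts and the scaling. No gene passed without PBS replicate 2 or 4 or insulin replicate 2 at 4 hpi (2023, 2074 and 2102 at an unadjusted p under 0.05). Leaving out PBS replicate 1 at 4 hpi left 2 genes, insulin replicate 4 at 4 hpi 4 genes, and insulin replicate 1 at 4 hpi 20 genes. pck1 and hal passed in 8 of the 15 fits that leave out 1 library, with adjusted p up to 0.157. mpp1 passed in 2 of 15, with adjusted p up to 0.418.

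The same treatments at 4 hpi, in separate libraries, show which of the early changes were still present later. The library sets were not balanced at 4 hpi, where insulin replicate 1 was the only low-wdr90 library. At 4 hpi 5943 genes passed (27.1% of those tested), 2880 higher (13.1%) and 3063 lower (14%). For 1563 genes (7.13%) the change at 4 hpi differed from that at 0.5 hpi (edgeR, interaction contrast). Of those, 615 (2.8%) had the higher change at 4 hpi and 948 (4.32%) the lower one. Without insulin replicate 1 at 4 hpi, 1420 genes passed this contrast. pck1, slc43a2b and mpp1 were lower in insulin at both times, with -0.80, -0.80 and -0.75 at 4 hpi (adjusted p = 0.000847, 0.00123 and 6.0e-05). In pck1 the level at 4 hpi was 693 ± 86.5 CPM in PBS and 398 ± 62.9 CPM in insulin (SD, n = 4 libraries each). Of the genes that rose early, 5 had passed in the opposite direction by 4 hpi: dhrs12 at -0.53, tefa at -0.87, ercc6 at -0.58, wdr76 at -0.98 and si:dkey-104n9.1 at -1.22. Mean PBS levels of these 5 were higher at 4 hpi than at 0.5 hpi, and mean insulin levels were lower. PBS went from 16.2 to 38.7 CPM for dhrs12, 151 to 319 for tefa and 21.2 to 37 for ercc6. For wdr76 PBS went from 6.07 to 17.6 CPM, and for si:dkey-104n9.1 from 2.2 to 4.98 CPM. Insulin in the same order went from 30.3 to 26.7, 249 to 175, 40.3 to 24.7, 17.7 to 8.99 and 5.59 to 2.16 CPM. The difference between the times passed for these 5 (adjusted p from 1.7e-05 for tefa to 0.000379 for ercc6). It also passed for MRAS (1 of 2) (-0.08 at 4 hpi, adjusted p of the difference = 0.00812). hal and epdl1 did not pass at 4 hpi, at -0.24 and -0.21 (adjusted p = 0.0723 and 0.119). Their difference between the times did not pass either (adjusted p = 0.0804 and 0.0933). So 3 of the 5 genes that fell, and 5 of the 6 that rose, passed as lower in insulin at 4 hpi. The rest were also below 0 there but did not pass.

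**Figure D2:**
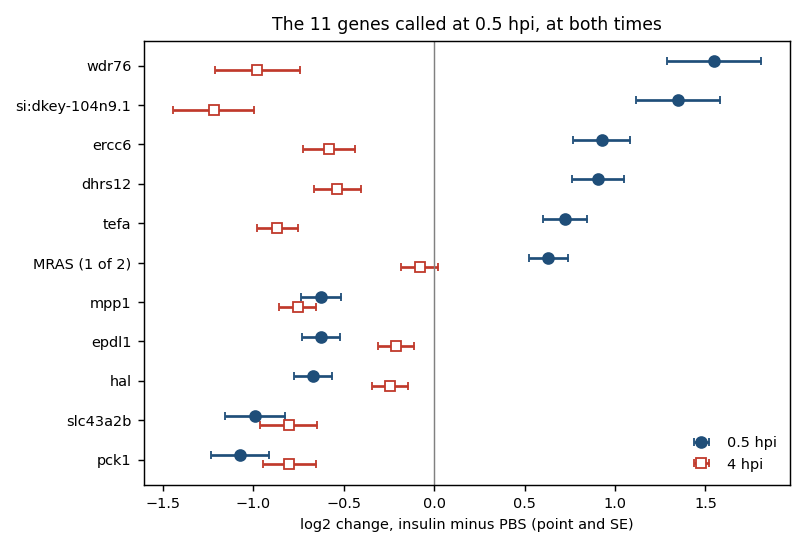
Log2 change, insulin minus PBS (horizontal axis), with its SE, for the 11 genes that passed at 0.5 hpi, at 0.5 hpi (filled circles) and at 4 hpi (open squares). Of the 6 genes right of 0 at 0.5 hpi none is right of 0 at 4 hpi, while pck1 stays left of 0 (-1.07 and -0.80).

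Split by library set, more genes passed in the other libraries than in the pooled comparison. With the groups split by set in 1 fit, 2383 genes (10.9%) passed within the other libraries, 1275 higher (5.81%) and 1108 lower (5.05%). Within the low-wdr90 libraries 599 (2.73%) passed, 482 higher (2.2%) and 117 lower (0.534%). These low-wdr90 tests have 1 PBS library, which is assumed to vary like the libraries of the other groups. Tests within the other libraries set PBS replicates 2 and 3 summed and replicate 4 against insulin replicates 3 and 4. Those insulin replicates differed beyond counting error in 710 genes, fewer than any other pair within a group but PBS replicates 2 and 3. Both sets hold few libraries, so counts within a set, here and in the lists below, describe these libraries. For 1802 genes (8.22%) the difference between the sets itself passed, with the change higher in the other libraries for 823 (3.75%) and lower for 979 (4.46%). Of the 2383 genes, 997 (41.8%) had the same direction in the low-wdr90 set and 1386 the opposite one. Their median change, signed by the direction in the other libraries, was 0.64 there and -0.06 in the low-wdr90 set. A total of 85 genes passed in both sets, 30 in the same direction and 55 in opposite directions. ndrg1b, for a stress-responsive NDRG family protein, is an example of the opposite kind, chosen after its values were seen. It was at 16.5, 64.8 and 58.4 CPM in PBS and 30.2, 30.8, 18.6 and 20.4 CPM in insulin (0.89 within the low-wdr90 set, -1.67 within the other libraries). Levels in PBS replicate 1 enter every change of the low-wdr90 set, so a high or low value of that library alone moves all of them.

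**Figure D3:**
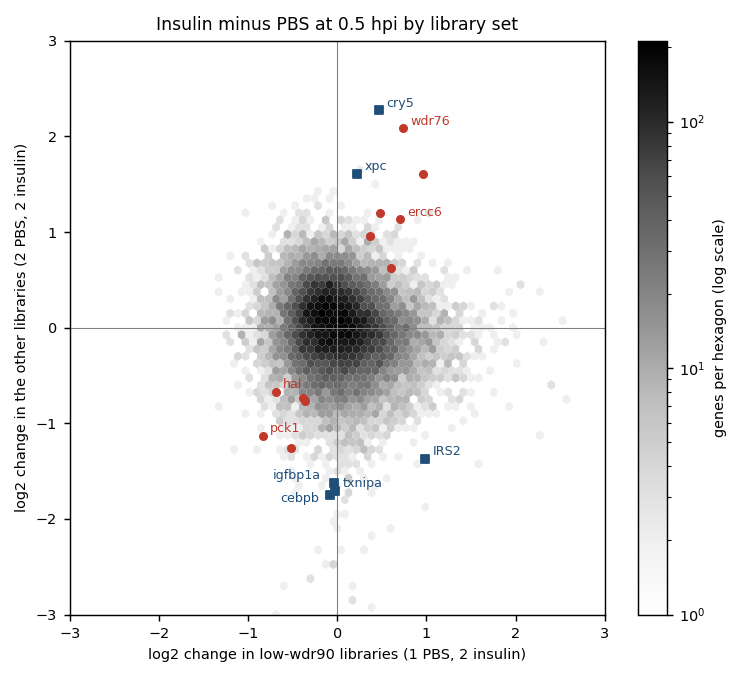
Log2 change, insulin minus PBS, at 0.5 hpi within the low-wdr90 libraries (horizontal) and within the other libraries (vertical) for the genes tested, as hexagons shaded by the number of genes on a log scale. The axes end at 3, with 53 genes beyond them. Red points are the 11 genes that passed in the pooled comparison. All are in the quadrants of equal direction, where groups without overlap place them. Blue squares are named genes such as txnipa (-0.02 and -1.71) and IRS2 (0.99 and -1.37).

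The 30 genes that passed in both sets in the same direction, 19 higher and 11 lower, were picked by that double test and are described here without a further one. Of these, 4, pck1, hal, ercc6 and MRAS (1 of 2), also passed in the pooled comparison. The genes described next were chosen from the 30 after their values were seen, and no count or test of a theme stands behind them. arr3a, for cone arrestin, which shuts off activated cone opsins, was at 237, 265 and 291 CPM in PBS and 452, 464, 446 and 479 CPM in insulin. All 4 insulin libraries lay above all PBS libraries, with little difference between the sets (0.95 and 0.74 within the low-wdr90 and the other libraries; pooled adjusted p = 0.144). SLC24A2 (1 of 2), for a sodium, calcium and potassium exchanger of cones, was at 41.9, 60.4 and 70.5 CPM and 110.2, 103.6, 114 and 118 CPM. RCVRN (1 of 4), for the calcium sensor recoverin, was at 180.2, 213 and 252 CPM and 300.4, 312, 342 and 361 CPM. pde6h, for the inhibitory subunit of cone phosphodiesterase, stood at 331, 327 and 419 CPM and 450.0, 528, 483 and 507 CPM. In these 3 genes too no insulin library overlapped the PBS libraries, and none passed in the pooled comparison (adjusted p = 0.224, 0.217 and 0.315). The melanopsin gene opn4.1 (1.23 and 0.44) and the retinal homeobox gene rx1 (1.15 and 0.48) were lowest in PBS replicate 1, and their pooled groups overlapped. The summed level of 61 eye markers was 9506, 14726 and 13086 CPM in PBS and 9688, 10788, 14547 and 12896 CPM in insulin, so it followed the library sets. Of these markers 35 had a pooled change above 0 and 26 below 0 (median 0.09), none passed in edgeR (5 higher and 7 lower at an unadjusted p under 0.05) and DESeq2 called 2. In the low-wdr90 set 12 passed as higher (2.2% of all genes did) and in the other libraries 4 (5.81% of all genes did). The part of the eye's share of the RNA was not tested.

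Of the genes lower in both sets, 6 are described, again chosen after their values were seen. gamt, for the methyltransferase that completes creatine synthesis, was at 539.5, 440.2 and 468 CPM in PBS and 321, 393, 304 and 276 CPM in insulin (-0.60 and -0.65 within the sets). slc13a2, for a transporter of citrate and other dicarboxylates, was at 101, 116 and 145 CPM and 61.7, 65.2, 77.2 and 69.98 CPM (-0.66 and -0.82). sepp1b, for a selenium-carrying plasma protein, was at 60.6, 55.5 and 48.98 CPM and 44.4, 42.5, 33.2 and 32.5 CPM (-0.48 and -0.67). In all 3 every insulin library lay below every PBS library. slc27a1b, for a fatty acid transporter (-0.76 and -0.67), and FETUB (3 of 3), for a fetuin of plasma (-0.51 and -0.34), were lower within each set. So was gpr39, for a zinc-sensing receptor (-0.92 and -1.01), and the pooled groups of all 3 overlapped. None of these 6 passed in the pooled comparison (adjusted p from 0.135 for sepp1b to 0.574 for slc27a1b). Summed liver markers stood at 22202, 17022 and 16015 CPM in PBS and at 15265, 17072, 15833 and 15333 CPM in insulin. Of the 39 markers tested, none passed in the pooled comparison in edgeR (1 higher and 7 lower at an unadjusted p under 0.05) or limma voom, and DESeq2 called 1. In the low-wdr90 set 5 passed as lower (0.534% of all genes did) and in the other libraries 5 (5.05%).

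Genes listed as acute insulin targets had changes below 0 throughout, but mostly through the other libraries. The list was not sorted by expected direction, and changes ran from -0.01 for pdk3a to -1.07 for pck1. Of 19 tested genes of this list, 1 passed in edgeR, pck1, and DESeq2 called 5 (206 of 21929 over all genes). All 19 had a change below 0, with a median of -0.47 against 0.01 over all genes tested. Within the other libraries the median was -0.63 and 10 passed as lower (5.05% of all genes did). Within the low-wdr90 set it was -0.08 with 1 lower and 1 higher. txnipa, for a thioredoxin-interacting alpha-arrestin that restrains glucose uptake, was at 386, 809 and 769.7 CPM in PBS and 371, 390.1, 235 and 249 CPM in insulin. PBS replicate 1 was as low as the low-wdr90 insulin libraries, and in the other libraries insulin replicates 3 and 4 were far below PBS (-0.02 and -1.71 within the sets). The difference between the sets was -1.69 (adjusted p = 9.3e-05) and the pooled change -1.07 (adjusted p = 0.112). igfbp1a, for a hepatic binding protein of insulin-like growth factors, followed the same shape, at 45.5, 92.2 and 95.1 CPM and 48.6, 40.05, 32.1 and 28.5 CPM. Its change was -0.04 and -1.62 within the sets and -1.06 pooled (adjusted p = 0.148). Its paralog igfbp1b had 0.15 and -1.25 within the sets, and txnipb -0.24 and -1.67. IRS2 on chromosome 1, one of a pair of genes for this adaptor of the insulin receptor, was at 14.3, 59.9 and 68.6 CPM in PBS and 30.5, 26.5, 24.6 and 24.8 CPM in insulin. PBS replicate 1 was the lowest of all 7. The change was 0.99 in the low-wdr90 and -1.37 in the other libraries (difference -2.36, adjusted p = 3.6e-06). The other copy, irs2 on chromosome 9, had 0.03 and -0.66, and irs1 0.14 and -0.63.

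In the same list the glucose-6-phosphatase gene g6pca.2 was at 196, 177 and 211 CPM in PBS and 132, 175, 118 and 97.03 CPM in insulin. The groups did not overlap (log2 change -0.58, adjusted p = 0.387). klf15, for a transcription factor of fasting gluconeogenesis, also had no overlap, at 29.4, 28.2 and 36.9 CPM and 21.8, 25.4, 22 and 17.7 CPM (log2 change -0.53, adjusted p = 0.248). Groups that do not overlap with the insulin side lower were seen in 4 of the 19 genes, pck1, txnipb, klf15 and g6pca.2, and in 3.82% of all genes tested. Levels of the receptor genes insra (-0.06) and insrb (-0.07), of the pyruvate dehydrogenase kinase genes pdk4 (-0.10) and pdk3a (-0.01), and of the lipogenic factor srebf1 (-0.09) overlapped. Their adjusted p ran from 0.881 to 0.992. ppargc1a, for a coactivator of gluconeogenic and mitochondrial genes, had a change of -0.36 and g6pc3 one of -0.50. The mitochondrial carboxykinase gene pck2 was at -0.22 and the glucokinase gene gck at -0.46, and all 4 overlapped. gck and srebf1 passed at 4 hpi in opposite directions (1.96 and -1.38), with a difference between the times that passed for each (adjusted p = 0.0163 and 0.0163). At 4 hpi 8 of the 19 passed as lower (14% of all genes did) and 2 as higher (13.1%).

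The alpha-arrestin list, of which the txnip genes are part, had 7 tested genes, all with a change below 0 (median -0.87). The median was -0.02 within the low-wdr90 set and -1.55 within the other libraries, where 5 passed as lower (5.05% of all genes did). arrdc2, for an arrestin-domain adaptor of membrane protein turnover, was at 75.5, 145 and 163 CPM in PBS and 66.1, 71.5, 48.6 and 39.6 CPM in insulin. The groups did not overlap, yet PBS replicate 1 was close to the low-wdr90 insulin libraries (log2 change -1.18, adjusted p = 0.112). Within the sets it was -0.13 and -1.80. FoxO and fasting genes, 38 tested, had a median of -0.14 with none passing in edgeR (6 lower at an unadjusted p under 0.05) or limma voom and 3 in DESeq2. In the other libraries 12 passed as lower (5.05% of all genes did). angptl4, for an inhibitor of lipoprotein lipase that fasting raises, was at 136, 156 and 151 CPM and 117, 112, 83.7 and 82.5 CPM (log2 change -0.58, adjusted p = 0.189). klf11b, for a Kruppel-like repressor, was at 60.6, 73.2 and 53.7 CPM and 49.3, 33.4, 45.6 and 35.5 CPM (-0.61, adjusted p = 0.146). Neither overlapped between the groups. sgk1, for a kinase downstream of PI3-kinase, was at 0.07 in the low-wdr90 set and -1.26 in the other libraries. The PI3-kinase inhibitor gene pik3ip1 was at 0.21 and -0.96, and the AKT inhibitor gene trib3 at 0.08 and -1.37. The 51 tested genes of the insulin signalling chain itself had a median of -0.003 with none passing in edgeR, limma voom or DESeq2 (3 at an unadjusted p under 0.05). Of them, 3 passed as higher (5.81% of all genes did) and 6 as lower (5.05%) in the other libraries.

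**Figure D4:**
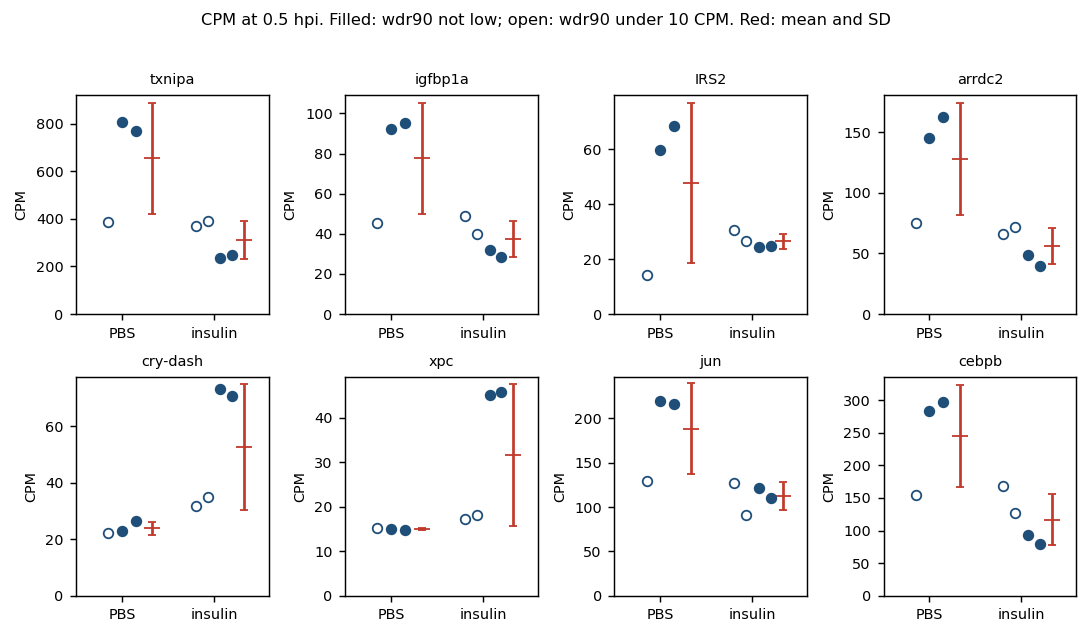
Level in CPM (vertical axis from 0) of 8 named genes at 0.5 hpi in the 3 PBS and 4 insulin libraries, with low-wdr90 libraries as open points, the others filled, and red bars for mean and SD. For txnipa, igfbp1a, IRS2, arrdc2, jun and cebpb the filled PBS points stand above all other points, with the open PBS point well below them. That of txnipa is at 386 CPM, against 371 CPM in insulin replicate 1. For cry-dash and xpc the filled insulin points stand above all others.

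Light-responsive and photolyase genes had changes above 0, again most of all in the other libraries. Of 16 tested genes of this list 2, ercc6 and tefa, passed in edgeR, and DESeq2 called 8 (206 of 21929 over all genes). Changes were above 0 in 15, and the median was 0.67. It was 0.25 within the low-wdr90 set and 0.97 within the other libraries, where 12 passed as higher (5.81% of all genes did). Groups without overlap, higher in insulin, were seen in 7 of the 16 and in 3.96% of all genes. cry-dash, for a DNA-repairing member of the cryptochrome family, was at 22.2, 23.1 and 26.4 CPM in PBS and 31.7, 35.1, 73.2 and 70.8 CPM in insulin. Insulin replicates 1 and 2 lay somewhat above PBS and replicates 3 and 4 far above it (log2 change 1.14, adjusted p = 0.112). Within the sets it was 0.59 and 1.55, each past its test. cry5, for the photolyase of pyrimidine-pyrimidone lesions, was at 10.04, 6.93 and 7.22 CPM and 14.8, 13, 31.6 and 36.6 CPM (0.47 and 2.27 within the sets). Among damage-recognition genes, xpc had changes of 0.22 and 1.61 within the sets and ddb2 0.26 and 1.57. For cry-dash, cry5, xpc and ddb2 the difference between the sets passed (adjusted p = 0.00235, 0.00132, 0.000349 and 0.00284). per2, the light-induced period gene, was at 112, 141 and 173 CPM and 171, 182, 321 and 300.3 CPM. lonrf1, which the gene table also names lonrf4, was at 25.9, 31.3 and 43.4 CPM and 39.2, 46.1, 80.99 and 74.5 CPM. In per2 and lonrf1 the pooled groups overlapped, but the insulin libraries were higher within each set, and each change passed. They were 0.66 and 0.98 for per2 and 0.72 and 1.07 for lonrf1. The rest ranged from -0.10 for exo1 to 0.62 for the glycosylase gene neil1, with hsf2 (0.44) the one without overlap and tefb (0.01), the paralog of tefa, close to 0.

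At 4 hpi the median of the light list was -0.56, with 8 lower (14% of all genes) and none higher. For 11 of the 16 genes the difference between the times passed (7.13% of all genes). per2 went from 0.78 at 0.5 hpi to -2.33 at 4 hpi (adjusted p of the difference = 4.9e-06) and cry-dash from 1.14 to -1.46 (0.000204). lonrf1 went from 0.85 to -1.15 (0.000631). cry1a, a cryptochrome gene of the clock, was at 0.19 and -1.26 (0.000201). In each of these genes the mean PBS level was higher at 4 hpi than at 0.5 hpi, and the mean insulin level lower. For per2 the means went from 142 to 326 CPM in PBS and from 243.5 to 64.7 CPM in insulin. For cry-dash they went from 23.9 to 76.9 CPM in PBS and from 52.7 to 28 CPM in insulin. Time of day and lighting of the pools were not in the labels, and their part in the result was not tested. Among 55 tested excision-repair genes, ercc6 and wdr76 passed in edgeR (DESeq2 called 4, limma voom none) and the median was 0.12. In the other libraries 13 passed as higher (5.81% of all genes did) and 1 as lower (5.05%). Among 45 tested clock genes only tefa passed in edgeR (DESeq2 called 2) and the median was 0.03. Within the sets it was 0.35 in the low-wdr90 libraries and -0.13 in the others. nfil3-5, for a repressor that opposes PAR bZIP factors, was at 0.23 and -0.97.

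Immediate-early genes had no gene that passed in either direction in the pooled edgeR comparison at 0.5 hpi, and most had changes below 0. Of 58 tested, none passed in edgeR (1 higher and 34 lower at an unadjusted p under 0.05) or in limma voom. DESeq2 called 13 as lower (143 of 21929 over all genes). Changes were below 0 in 52 genes, and the median was -0.44. Within the other libraries the median was -0.75 and 35 passed as lower (5.05% of all genes did) and none as higher. Within the low-wdr90 set it was 0.03 and none passed (edgeR), and the difference between the sets passed for 23 (8.22% of all genes). jun, for an AP-1 factor, was at 129, 220.0 and 216 CPM in PBS and 127, 91.02, 121 and 110.3 CPM in insulin, without overlap (log2 change -0.75, adjusted p = 0.112). PBS replicate 1 was close to insulin replicate 1, and the change of jun was -0.24 within the low-wdr90 set and -0.91 within the other libraries. klf2a, for a flow-sensitive Kruppel-like factor of endothelium, was at 55.9, 63.8 and 64.3 CPM and 42.9, 35.4, 41.3 and 47.6 CPM. Its change was nearly the same within both sets (-0.51 and -0.53; pooled adjusted p = 0.112). egr3, for a zinc-finger factor, was at 14.6, 24.99 and 28.04 CPM and 15.7, 12.5, 10.8 and 12.7 CPM, and there the difference lay in the other libraries (-0.05 and -1.17). Examples chosen after their values were seen are fos and dusp1, the latter for a phosphatase that ends MAP kinase signals. fos was at 178, 254 and 368 CPM in PBS and 237, 150.3, 111 and 77.4 CPM in insulin, and dusp1 at 122, 190.1 and 249.8 CPM and 136, 115, 50.2 and 46.4 CPM. In both, PBS replicates 2 and 3 and replicate 4 were higher than all other libraries. Within the sets fos had 0.12 and -1.72, dusp1 0.04 and -2.18, and the stress factor gene atf3 0.58 and -1.58. The antiproliferative gene btg2 had 0.05 and -1.48, egr1 -0.13 and -0.98, and nr4a1 -0.14 and -0.62. At 4 hpi 36 of the 58 passed as lower (14% of all genes did) and 4 as higher (13.1%).

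Ribosome biogenesis and sterol synthesis genes leaned above 0 and also differed by library set, with medians below 0 in the low-wdr90 set. Of 70 tested ribosome biogenesis genes none passed in edgeR (15 higher and 4 lower at an unadjusted p under 0.05) or in limma voom, and DESeq2 called 3. Changes were above 0 in 63, and the median was 0.24. It was -0.23 within the low-wdr90 set, where none passed, and 0.54 within the other libraries, where 42 passed as higher (5.81% of all genes did) and 2 as lower (5.05%). The difference between the sets passed for 36 of the 70 (8.22% of all genes). ubtfl, for a relative of the RNA polymerase I factor UBTF, was at 69.05, 54.05 and 56.3 CPM in PBS and 75.2, 80.1, 90 and 91.8 CPM in insulin. ubtf itself was at 174, 168 and 161 CPM and 200.4, 197, 239 and 243 CPM. Neither overlapped between the groups (log2 change 0.50 and 0.39, adjusted p = 0.112 and 0.211). Both were above 0 in each set, at 0.17 and 0.72 for ubtfl and at 0.19 and 0.55 for ubtf. The nucleolar genes fbl (-0.42 and 0.89 within the sets), dkc1 (-0.37 and 0.99) and nolc1 (-0.59 and 1.16), chosen after their values were seen, had opposite signs in the sets. In each of them PBS replicate 1 was the highest PBS library, with fbl at 136, 71.6 and 53.4 CPM in PBS. odc1, for the first enzyme of polyamine synthesis, is also on the list and was lower in insulin, at 174, 242.3 and 237 CPM and 173, 121, 155 and 155 CPM without overlap (log2 change -0.53, adjusted p = 0.19). Its change was -2.29 at 4 hpi (adjusted p = 3.7e-09). Of 31 tested sterol genes none passed in edgeR, limma voom or DESeq2, with 3 higher and 2 lower at an unadjusted p under 0.05. The median was 0.16, with -0.26 and 0.47 within the sets, and 12 passed as higher in the other libraries (5.81% of all genes did). Among the 12 was hmgcra, for the rate-limiting enzyme, at 18.9, 16.7 and 15.9 CPM in PBS and 20.2, 18.3, 34.6 and 38.5 CPM in insulin. So was msmo1, chosen after its values were seen, with -0.08 and 1.43. Lipogenic genes, 26 tested, had a median of -0.02 with none passing in any of these tools (4 higher at an unadjusted p under 0.05). fasn, for fatty acid synthase, was at 21.1, 25.7 and 29 CPM and 30.1, 29.8, 32.8 and 34.2 CPM without overlap (log2 change 0.33, adjusted p = 0.31).

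The glucocorticoid, ATF4, PIM and hypoxia lists leaned below 0, mostly in the other libraries. The unfolded-protein and heat-shock list did not, with a median of -0.03, and 0.05 within the other libraries. Of 28 tested glucocorticoid and stress genes pck1 alone passed in edgeR (11 lower at an unadjusted p under 0.05) and limma voom, and DESeq2 called 6 (median -0.27). Within the sets the median was -0.004 and -0.49, and groups without overlap on the lower side were seen in 8 (3.82% of all genes). cebpb, for a C/EBP factor of acute-phase and gluconeogenic genes, was at 155, 283 and 298 CPM in PBS and 168, 126, 93.05 and 80.03 CPM in insulin (-0.08 and -1.75 within the sets). Its paralog cebpd had -0.12 and -1.48. klf9 and ddit4, glucocorticoid targets chosen after their values were seen, were alike, with -0.22 and -1.79 for klf9 and 0.05 and -1.79 for ddit4. Among the ATF4 and amino acid genes, 35 tested with a median of -0.16, none passed in edgeR (11 at an unadjusted p under 0.05) or limma voom and 4 in DESeq2. eif2ak3, for the kinase PERK of the unfolded protein response, was at 36.5, 41.3 and 39.6 CPM and 32.1, 26.8, 30.1 and 30.8 CPM without overlap (log2 change -0.39, adjusted p = 0.189). At 4 hpi it was higher in insulin than in PBS (0.99, adjusted p of the difference between the times = 1.2e-05). In the PIM, JAK and STAT list, 35 tested with a median of -0.20, none passed in edgeR (7 at an unadjusted p under 0.05) or limma voom and 4 in DESeq2. pim2, for a survival kinase, was at 20.9, 31.4 and 28.6 CPM and 16.7, 18.3, 13.1 and 14.2 CPM (log2 change -0.80, adjusted p = 0.112). Hypoxia genes, 38 tested with a median of -0.20, had the same counts but 13 at an unadjusted p under 0.05. ADM, for the vasodilator adrenomedullin, was at 13.7, 18.6 and 18.8 CPM and 12.8, 12.4, 6.91 and 7.20 CPM (-0.79, adjusted p = 0.189). None of 45 inflammation genes, 43 unfolded-protein and heat-shock genes, 38 fatty acid oxidation genes, 53 glycolysis and gluconeogenesis genes, 68 cell cycle genes or 32 genes that restrain insulin signalling passed in edgeR or limma voom, with medians from -0.15 to 0.08. Over these 6 lists 37 of 279 memberships had an unadjusted p under 0.05 (edgeR; 10.1% of all genes did). Of the 37, 8 were higher (4.76% of all genes) and 29 lower (5.34% of all genes). The 37 were 11 inflammation genes (10 lower, 1 higher), 9 genes that restrain insulin signalling, 5 fatty acid oxidation genes and 4 in each other list. DESeq2 called 5 of the 279 (206 of 21929 over all genes). Within the low-wdr90 and the other libraries the median was -0.28 and 0.16 for fatty acid oxidation genes and -0.21 and 0.26 for cell cycle genes. Medians of the other 4 lists ran from -0.14 to 0.03 in the low-wdr90 set and from -0.16 to 0.05 in the other libraries.

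**Figure D5:**
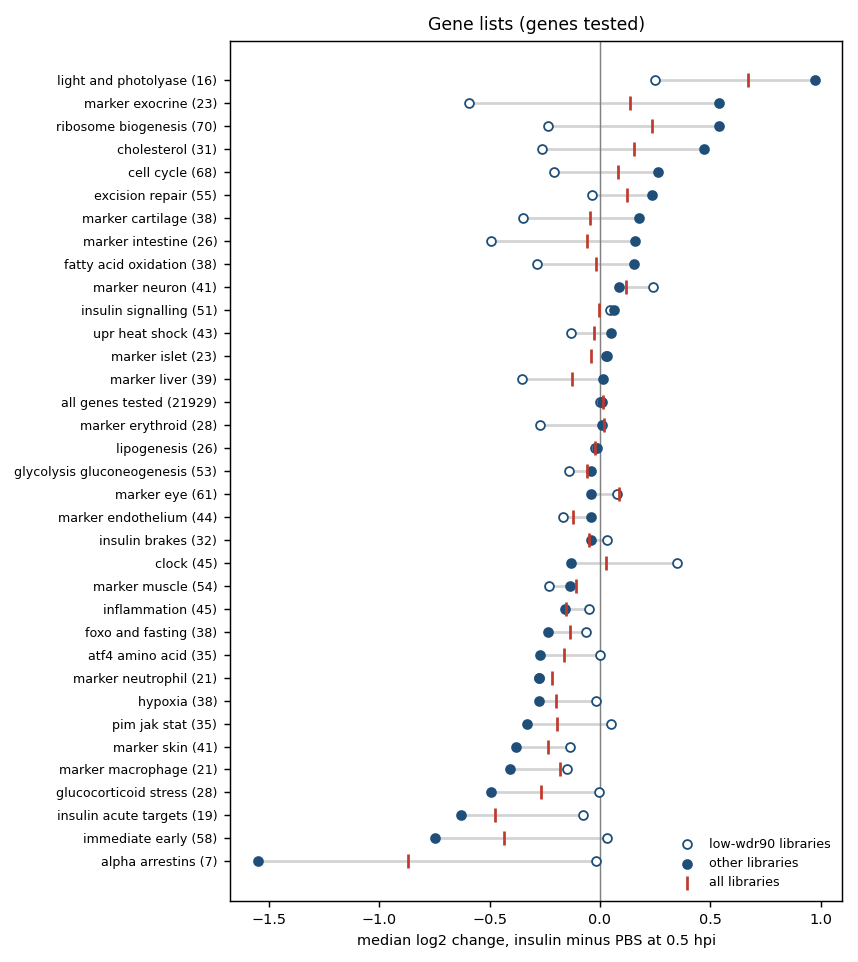
Median log2 change, insulin minus PBS at 0.5 hpi (horizontal axis), of 34 gene lists and of all genes tested, over all libraries (red bars), within the low-wdr90 libraries (open points) and within the other libraries (filled points), with the number of genes tested in brackets. The lists are ordered by the median in the other libraries, from -1.55 for alpha arrestins to 0.97 for the light and photolyase genes. For ribosome biogenesis the open point (-0.23) and the filled point (0.54) lie on opposite sides of 0.

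The 12 abundant genes with moderate changes described next had small errors and did not pass (edgeR; each had an unadjusted p under 0.05). They were the 6 per direction with the smallest p among genes averaging at least 50 CPM with a log2 change under 0.6 in size. The smallest change in size that passed was -0.63 for mpp1, so the limit of 0.6 alone left out every gene that passed. All 12 had groups that did not overlap, against 7.78% of all genes. Choosing by the smallest p favours such groups and a low unadjusted p, so neither is a result about abundant genes. mthfd1l, for a mitochondrial folate enzyme, was at 138, 124 and 122 CPM in PBS and 106, 103, 81.3 and 75.8 CPM in insulin. The calsequestrin gene casq1a of muscle was at 253, 240.2 and 271 CPM and 194, 219, 169 and 164 CPM. pim1, for a survival kinase, was at 118, 163 and 155 CPM and 116, 104.4, 103 and 94.4 CPM. mcl1a, for an anti-apoptotic BCL2 relative, was at 100.1, 117 and 126 CPM and 98.3, 85.2, 66.95 and 66.01 CPM. The adjusted p of pim1 and mcl1a were 0.172 and 0.176. On the higher side, ccnt2a, for a cyclin of the elongation kinase P-TEFb, was at 55.7, 50.5 and 51.1 CPM and 63.8, 81.5, 79.6 and 80.5 CPM. suz12b, for a Polycomb subunit, was at 69.5, 59.4 and 60.4 CPM and 83.8, 101, 83.5 and 82.8 CPM. cd99l2, for a cell adhesion protein, was at 202, 206 and 179 CPM and 257, 254, 269 and 286 CPM, and the zinc-finger gene pogzb at 45.5, 40.5 and 47.05 CPM and 56.9, 57.1, 60.3 and 63.6 CPM. C2H6orf52, named trnau1apb in the gene table, was at 73.8, 70.6 and 66.4 CPM and 86.6, 97.2, 93.5 and 97.2 CPM. Their log2 changes were 0.41 to 0.54 with SE of 0.09 to 0.12 and adjusted p from 0.112 to 0.148. The changes of these 9 genes and of klf2a and ubtfl, given above, had the same sign in both library sets, as groups without overlap must have. They were not of like size in all of them. Within the low-wdr90 and the other libraries, pim1 was at -0.10 and -0.69, mcl1a at -0.13 and -0.87, and ubtfl at 0.17 and 0.72.

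Counting PBS replicates 2 and 3 as separate libraries raised the number of genes that passed to 84 of 21650 (0.388%), 36 higher (0.166%) and 48 lower (0.222%). All 11 genes were among them. The separate count treats the pair as independent pools, though they differed beyond counting error in only 89 of 22287 genes. Levels in this paragraph are from the summed counts, and the first adjusted p of the separate count is named as such. The adjusted p in brackets after later levels are of the separate count too. With the pair summed, none of the genes named next passed (edgeR, adjusted p from 0.102 for hebp2 to 0.112 for hmox2a). Higher in insulin was hebp2, for a heme-binding protein, at 31.9, 27.3 and 26.8 CPM in PBS and 35.99, 44.2, 53.4 and 58.1 CPM in insulin (separate adjusted p = 0.0212). hmox2a, for a heme oxygenase, was at 22.6, 19.1 and 19.1 CPM and 26.2, 31, 29.3 and 30.3 CPM (0.0276). adnpb, for a homeodomain chromatin protein, was at 25.6, 27.1 and 24.6 CPM and 35.1, 34.5, 37.8 and 40.6 CPM (0.0294). CR936437.1, named ZNF281 in the gene table, was at 30.8, 27.1 and 24.6 CPM and 42.2, 34.2, 42.95 and 41.8 CPM (0.0294). dcun1d4, for a neddylation cofactor, was at 18.5, 18.6 and 18.6 CPM and 24.3, 28.8, 27.04 and 25.4 CPM (0.0411). The deubiquitinase gene zufsp was at 6.54, 4.40 and 5.42 CPM and 10.2, 10.7, 10.3 and 8.81 CPM (0.0294), and zgc:66474 at 23.5, 21.9 and 21.9 CPM and 29.97, 35.6, 32.4 and 35.7 CPM (0.0308). None of these 7 overlapped between the groups. On the lower side, diabloa, for a mitochondrial promoter of apoptosis, was at 40.95, 68.6 and 64.98 CPM and 25.8, 34.9, 38.1 and 33.4 CPM (0.0167). It was higher in insulin at 4 hpi (0.64, adjusted p of the difference = 0.000728). C3 (3 of 9), a complement gene in a family of near copies that may share reads, was at 31.4, 35.9 and 42.4 CPM and 27.7, 20.8, 23.99 and 18.2 CPM (0.0308). ZMAT1 was at 2.82, 4.26 and 4.21 CPM and 1.38, 2.09, 0.936 and 1.24 CPM (0.0308), and zgc:73324 at 23.6, 27.1 and 35.4 CPM and 16.1, 20.1, 15.4 and 15.01 CPM (0.0308). zgc:113363 and si:dkey-242k1.4, both on chromosome 8, had like levels in every library and may share reads. Their changes were -2.50 and -1.95 in the other libraries against -0.13 and 0.08 in the low-wdr90 set, and the difference between the sets passed for each.

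With a term for the library set, 161 genes passed (0.734%), 78 higher (0.356%) and 83 lower (0.378%), including all 11. NAT16, for an N-acetyltransferase, was at 19.97, 23.99 and 31.1 CPM in PBS and 34.2, 35.2, 64.7 and 72.3 CPM in insulin (log2 change with the term 1.12, SE 0.14, adjusted p = 0.000597). Its lowest insulin library lay above its highest PBS library. si:ch211-225b11.1 had the same arrangement, at 25.2, 20.1 and 23.4 CPM and 33.2, 32.7, 52.9 and 51.9 CPM (0.93, adjusted p = 0.00397). ankrd9, for an ankyrin-repeat protein, was lower at 42.8, 38.4 and 41.3 CPM and 29.97, 31.6, 18.3 and 14.02 CPM (-0.98, adjusted p = 0.00397), with the lowest levels in insulin replicates 3 and 4. The term assumes the same change in both sets. Within the low-wdr90 and the other libraries NAT16 was at 0.80 and 1.33, si:ch211-225b11.1 at 0.39 and 1.28 and ankrd9 at -0.47 and -1.30. In the pooled comparison these genes did not pass (edgeR, adjusted p = 0.182, 0.0784 and 0.231). hbbe2, an embryonic beta globin gene in a family of near copies, also passed as lower with the term (321, 212 and 179.9 CPM and 238, 217, 151 and 138 CPM; -0.46, adjusted p = 0.0366), though its pooled groups overlapped. Of the 28 erythroid markers tested, it was the only 1 that passed with the term. In the pooled comparison 15 of the 28 were above 0 and 13 below 0 (median 0.02). None had an unadjusted p under 0.05 (edgeR).

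Tissue markers had no gene that passed in the pooled comparison in any of the 13 lists (edgeR; DESeq2 called 12 and limma voom none). Of 460 memberships 10 were higher and 51 lower at an unadjusted p under 0.05, against 4.76% and 5.34% of all genes. Skin markers, 41 tested, had the lowest median, -0.24, and 37 of them were below 0. Their summed level was 19629, 20576 and 19409 CPM in PBS and 17802, 19825, 14142 and 14670 CPM in insulin. Insulin replicates 3 and 4 were the lowest. cldnb, for a claudin of epithelial tight junctions, was at 160.0, 227 and 262 CPM and 147, 137, 86.02 and 86.1 CPM (log2 change -0.92, adjusted p = 0.237). The desmosome gene dspa was at 155, 179.9 and 207 CPM and 138, 143, 126 and 132 CPM. Muscle markers, 54 tested, had a median of -0.11 with 50 below 0. Their summed level was 113971, 95549 and 91172 CPM in PBS and 91105, 95507, 85708 and 82160 CPM in insulin. tcap, for the titin cap of the sarcomere, was at 24.6, 67.6 and 101 CPM and 16.7, 21.2, 25.1 and 20.97 CPM (-1.62, adjusted p = 0.144). tek, for the angiopoietin receptor of endothelium, was at 9.25, 16.99 and 17.2 CPM and 8.40, 3.60, 6.79 and 8.31 CPM without overlap (-1.10, adjusted p = 0.132). Of 23 islet markers, 10 were above 0 and 13 below 0 (median -0.04). Only 1 on each side was without overlap, 8.7% of the list against 7.78% of all genes. gcga, for proglucagon, was at 13.7, 13.3 and 17.7 CPM and 8.03, 7.78, 8.19 and 10.6 CPM, lower in insulin (-0.78, adjusted p = 0.22). pcsk2, for a convertase of prohormones, was at 38.6, 45.1 and 47.5 CPM and 49.1, 48.3, 52.3 and 56.6 CPM, higher in insulin (0.24, adjusted p = 0.555). The 21 neutrophil markers had a median of -0.22 and the 21 macrophage markers one of -0.18, with 19 and 16 of them below 0.

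ptpn6, the phosphatase gene in the title of the series, was low at 0.5 hpi and did not pass. The symbol belongs to a pair of gene IDs on chromosome 16, between which reads may be split. The first, ENSDARG00000013916, was at 4.51, 1.93 and 3.61 CPM in PBS and 1.63, 2.79, 3.04 and 3.35 CPM in insulin, and the second, ENSDARG00000089043, at 2.60, 2.07 and 3.25 CPM and 2.63, 2.67, 1.64 and 3.10 CPM. Both overlapped between the groups, with log2 changes of -0.26 (SE 0.29) and -0.05 (SE 0.29). At 4 hpi they were higher in insulin than in PBS, by 1.56 and 1.12 (edgeR, adjusted p = 0.000635 and 0.0112). From 0.5 to 4 hpi the mean level of the first went from 3.352 to 1.675 CPM in PBS and from 2.702 to 4.932 CPM in insulin. That of the second went from 2.637 to 1.231 CPM in PBS and from 2.511 to 2.678 CPM in insulin. The difference between the times passed for the first (adjusted p = 0.0112) and not for the second (0.0981).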

How the data were processed

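The values analysed were the deposited counts, whole numbers of reads per gene in 1 table for each of 16 libraries, with 31452 genes in each table. Per the submitters' processing notes the build was Zv9. Aligner, counting tool and strand setting: not given in the sources used here. Total RNA was extracted with TRIzol and treated with DNase I, per the labels' protocols, from pools of 10 embryos, so p-values measure the spread between pools.

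Counts of PBS replicates 2 and 3 at 0.5 hpi were summed. Genes were filtered with filterByExpr over the 4 groups and scaled with TMM factors. A quasi-likelihood model (edgeR 4.0.16, glmQLFit with the robust option, glmQLFTest, R 4.3.3) was fitted to all libraries as 15 units with 11 residual degrees of freedom. Tests were two-sided. P-values were adjusted by Benjamini-Hochberg over every gene in the fit, and genes under 0.05 passed. CPM are counts scaled to a common library size with TMM factors, log2 changes and their standard errors (SE) are from the model, and a positive change is higher in insulin. The low-wdr90 libraries had under 10 CPM of wdr90. Changes within library sets come from a fit with 8 residual degrees of freedom, an alternative added after the data were seen. The model was tested on simulated data.

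Other alternatives were DESeq2 1.42.0 (size factors and Wald test), limma 3.58.1 voom, library totals, other filters, the pair counted separately or as either library alone, a library-set term, the header lane, a replicate block and leaving out each library. Symbols and chromosomes came from the deposited tables, with 21028 gene IDs also in a name table; of 1304 symbols in 34 lists 1235 (94.7%) matched. Genes were named if they passed, or if they passed only with the pair separate (8 per direction with the smallest p). Others were abundant with a moderate change (6 per direction with the smallest p). Others again passed with the library-set term without overlap within both sets (4 per direction with the smallest p). List members were named too, all of the acute insulin and light lists and those with the smallest p of the others. The members, lists, rule and alternatives were chosen with earlier results of these data known. A gene that the rule selects is not reported here. Figures were drawn with matplotlib.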

Additional observations from a re-analysis of the deposited data

Results flagged for a closer look

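For 1563 genes the change at 4 hpi differed from that at 0.5 hpi in the interaction test (edgeR, adjusted p under 0.05), and 41 of these are named here. In 34 of the 41 the changes at the 2 times had opposite signs. The 41 were named largely for their values at 0.5 hpi or as list members, and a difference that passes favours opposite signs. That share was not counted over the 1563 genes, so 34 of 41 is no result about timing. Among the genes that passed at 0.5 hpi, the difference (4 hpi minus 0.5 hpi, log2) was -1.44 for dhrs12, -1.59 for tefa, -1.51 for ercc6, -2.52 for wdr76, -2.57 for si:dkey-104n9.1 and -0.71 for MRAS (1 of 2). In the light-responsive, repair and clock genes it was -2.60 for cry-dash, -1.95 for cry5, -1.58 for ddb2, -1.42 for xpc, -3.11 for per2, -1.999 for lonrf1, -1.49 for hsf2, -1.45 for cry1a, -0.93 for tefb and -1.65 for nfil3-5. Insulin targets and metabolic genes had 2.04 for txnipb, 2.42 for gck, -1.29 for srebf1, -0.89 for fasn, -0.97 for sgk1 and -1.76 for odc1. Immediate-early and stress genes had 1.12 for klf2a, -2.74 for fos, -2.27 for atf3 and 1.38 for eif2ak3. In the photoreceptor genes it was -1.10 for arr3a and -1.50 for SLC24A2 (1 of 2). Among the remaining named genes it was -1.24 for si:ch211-225b11.1, 1.45 for diabloa, -0.72 for hebp2, -1.51 for zufsp, 2.83 for ZMAT1, -0.58 for zgc:66474, -0.86 for pogzb, -0.78 for ubtfl, -0.61 for suz12b, -1.21 for ubtf, -1.01 for adarb1a, -0.66 for PAPD5 and 1.83 for ptpn6 (ENSDARG00000013916).

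A single insulin library at 0.5 hpi lay far from the other 3 of its group in 7 of 141 groups of values checked with Dixon's 95% criterion, where chance gives about 1 in 20. The library that stood apart was at 34.2 CPM for CR936437.1, 63.8 CPM for ccnt2a, 101.0 CPM for suz12b, 6.96 CPM for zgc:113363, 18.8 CPM for pdk4, 3.13 CPM for exo1 and 10.6 CPM for gcga.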

How the results depend on the processing

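The 11 genes became 84 with PBS replicates 2 and 3 counted separately, 206 with DESeq2's Wald test (143 lower, 10 shared) and 4 with limma voom. With the libraries at 0.5 hpi alone no gene passed in edgeR (1469 at an unadjusted p under 0.05). A library-set term gave 161, or 493 with the pair separate. Leaving out the low-wdr90 libraries, insulin replicate 1 at 4 hpi among them, gave 2360, or 2844 with the pair separate. The sets taken alone gave 599 (low-wdr90) and 2383 (other). Libraries whose header names a lane gave 76, none of them among the 11, and those without a lane gave 0 (708 at an unadjusted p under 0.05). The lane fit sets 1 PBS unit (replicates 2 and 3, lane 2) against 1 insulin library (replicate 1, lane 6) from different library sets, so its 76 genes compare these libraries, with the spread taken from 4 hpi. Leaving out 1 library gave 0 to 517 genes. The 1563 genes whose change differed between the times became 2747 with the library-set term, 3448 with the term and the pair separate, and 2880 without the low-wdr90 libraries and with the pair separate. They became 232 with the lane libraries, 0 without them (1178 at an unadjusted p under 0.05), with those arms of 1 at 0.5 hpi in the former and 1 PBS against 1 insulin library at 4 hpi in the latter. They became 880 without PBS replicates 2 and 3 at 0.5 hpi, and 925 to 2412 on leaving out any other library. The cause of these shifts was not tested, beyond the fewer libraries that some of them hold.

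Among the genes followed through the alternatives, IRS2 (0.99 in the low-wdr90 set) and ndrg1b (0.89 there) reversed direction in a test they passed, with 1 PBS library in that set. Other size factors, filters and either library of the pair alone kept the count within 1.5 times of 11. With the replicate number as a block and the pair separate, 103 genes passed. Same-numbered PBS and insulin libraries had correlations of deviations of 0.247, -0.154, 0.101 and 0.0733. PBS replicate 1 had 0.247 and 0.257 with insulin replicates 1 and 2, and -0.323 and -0.194 with replicates 3 and 4. The correlations thus followed the library sets and cannot show whether the numbers pair the samples, so the block is not read as a pairing. What size of change the test could reach at this depth and with 3 against 4 libraries is not given here. Genes that did not pass may still have changed. hal passed at -0.67 and si:dkey-104n9.1 at 1.93 to 6.55 CPM, while tcap at -1.62 did not (edgeR, adjusted p = 0.144).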

Other observations

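A further 5 of the 30 genes that passed within both library sets in the same direction are given here, chosen after their values were seen. adarb1a, for an enzyme that edits adenosine in double-stranded RNA, was at 20.9, 30.6 and 31.3 CPM in PBS and 37.6, 39.2, 45.9 and 45.0 CPM in insulin (0.88 within the low-wdr90 and 0.55 within the other libraries). PAPD5, for a poly(A) polymerase of nuclear RNA surveillance, was at 42.4, 46.2 and 50.4 CPM in PBS and 57.8, 63.7, 64.5 and 68.2 CPM in insulin (0.52 within the low-wdr90 and 0.46 within the other libraries). hmga1b, for an architectural chromatin protein, was at 50.8, 65.6 and 64.3 CPM in PBS and 76.9, 71.0, 83.8 and 93.3 CPM in insulin (0.54 within the low-wdr90 and 0.45 within the other libraries). In adarb1a, PAPD5 and hmga1b every insulin library lay above every PBS library, and none passed in the pooled comparison (edgeR, adjusted p = 0.146, 0.184 and 0.304). On the lower side, vgll2b, for a transcription cofactor of muscle and pharynx, was at 24.03, 18.3 and 18.1 CPM in PBS and 15.1, 13.9, 13.3 and 9.31 CPM in insulin. The groups did not overlap (-0.73 within the low-wdr90 and -0.68 within the other libraries, pooled adjusted p = 0.171). tp53bp2, for a p53-binding regulator of apoptosis, was at 84.3, 148 and 157 CPM in PBS and 58.5, 57.6, 117 and 117 CPM in insulin (-0.54 within the low-wdr90 and -0.38 within the other libraries). Its levels followed the library sets first and the treatment within them, so the pooled groups overlapped.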
